A study of Mus musculus with 50 samples.

Results

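A total of 8645 CpG-dense promoter clusters were examined among the 51038 clusters of neighbouring CpGs quantified by reduced representation bisulfite sequencing (RRBS) in mouse soleus, a slow postural muscle. A cluster was a run of CpGs with gaps of at most 100 bp. It was included when the run held 30 or more CpGs in the genome, covered or not, and when at least 1 covered CpG lay in a promoter as the authors assigned it, 3000 bp before to 1000 bp after a transcription start site. The rule used no measured value. The clusters made up 16.9% of all clusters and held 94584 of the 205304 covered CpGs (46.1%), next to 8445 promoter genes. A median of 9 CpGs was covered per cluster (range 1 to 84) out of a median of 92 in the run, so 10.6% of the CpGs of these runs were seen, and 593 clusters rested on 1 covered CpG. A methylation level is given in percent, as methylated calls divided by the total of calls in the cluster.

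WT mice were Dnmt3a flox/flox and mD3AKO mice were Dnmt3a flox/flox with a Cre transgene driven by the muscle creatine kinase promoter (mCK-Cre), so both carried LoxP sites around exon 19 of Dnmt3a and all were C57BL/6 at 12 weeks of age. Rest mice spent the time in a sham arena, and the others ran on a treadmill for 30 min and were killed 10, 30 or 60 min later. There were 5 WT samples for rest and for each of 10 and 30 min, and 6 for 60 min. For mD3AKO there were 5, 5, 7 and 6. Females and males were in every group, and 1 soleus was 1 sample. mCK-Cre acts late in differentiation, so satellite cells and cells other than fibres presumably keep Dnmt3a, which was not measured here. The level of a whole muscle cannot tell many lightly methylated molecules in all cells from dense methylation in a few cells. RRBS did not measure the deleted exon or Dnmt3a RNA here. The labels number the rest and 60 min samples from 1 to 25 and the 10 and 30 min samples from 26 to 50. Both genotypes were in each set. Differences of rest or 60 min from 10 or 30 min cannot be told apart from a difference between the sets, while rest against 60 min and 10 against 30 min were compared within a set.

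CpG islands are stretches of DNA that keep many CpGs and usually lie at promoters, where they are mostly free of methylation in every tissue. DNMT3A is a de novo methyltransferase that adds methyl groups to unmethylated CpGs, while DNMT1 copies existing methylation after replication. CpG island promoters that are fully methylated in body tissues typically belong to genes of germ cells, and imprinted promoters are methylated on 1 parental allele.

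Stretches of 5 of the clusters described below, and of 1 of the most methylated clusters, are shown so that the CpGs behind the values can be seen. They were read from GRCm38.p6, the assembly of mm10, on the plus strand, 5′ to 3′, and contain no annotated untranslated base. Capitals mark the CpGs that were covered and lower case all other bases. The Fut11 stretch (chr14:20695582-20695657) is coding, the Ucn stretch (chr5:31138889-31139019) lies directly before the start site, the Mmp23 stretch (chr4:155654482-155654551) is upstream, the Ctxn1 stretch (chr8:4258672-4258853) is intronic, the Fbxl15/Psd stretch (chr19:46328497-46328737) overlaps coding sequence of Fbxl15, and the Tnni3 stretch (chr7:4523966-4523985) overlaps a coding exon of Dnaaf3.
Fut11: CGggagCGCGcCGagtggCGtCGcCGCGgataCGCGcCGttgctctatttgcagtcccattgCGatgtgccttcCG
Ucn: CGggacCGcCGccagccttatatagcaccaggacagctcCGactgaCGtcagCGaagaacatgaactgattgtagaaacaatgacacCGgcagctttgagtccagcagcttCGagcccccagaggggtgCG
Mmp23: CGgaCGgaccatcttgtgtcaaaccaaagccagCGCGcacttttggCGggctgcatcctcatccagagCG
Ctxn1: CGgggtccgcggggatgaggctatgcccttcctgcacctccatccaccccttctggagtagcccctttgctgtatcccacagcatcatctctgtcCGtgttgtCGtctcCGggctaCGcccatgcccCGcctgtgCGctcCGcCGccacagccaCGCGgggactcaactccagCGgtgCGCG
Fbxl15/Psd: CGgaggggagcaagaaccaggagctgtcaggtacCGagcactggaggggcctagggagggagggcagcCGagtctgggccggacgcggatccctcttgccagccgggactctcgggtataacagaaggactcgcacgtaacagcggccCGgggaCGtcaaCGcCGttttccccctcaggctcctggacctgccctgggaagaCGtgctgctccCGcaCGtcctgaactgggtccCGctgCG
Tnni3: CGggggccaCGcaagcccCG

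The clusters held 4989907 to 15770203 calls per sample, which was 33.2% to 46.5% of all calls, with a median of 735 calls per cluster and sample (lowest 8). At that median, 0 methylated calls allow a level of up to 0.408%, and 32.2% of all cluster and sample values had 0 methylated calls. Over the clusters, the correlation between 2 samples ranged from 0.517 to 0.655, so no sample was a copy of another.

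Most CpG-dense promoter clusters were close to unmethylated in both genotypes. The median cluster level was 0.702% in WT and 0.667% in mD3AKO, beside 52.2% and 49.3% over all clusters of the table. By the mean of all 44 samples, 2314 clusters (26.8%) were under 0.5% and 3646 (42.2%) between 0.5 and 1%. A further 1274 lay at 1 to 2%, 728 at 2 to 5%, 474 at 5 to 20%, 170 at 20 to 80% and 39 (0.451%) at 80% or more. The 2375 promoter clusters with fewer CpGs had a median of 29.0% in WT and 26.0% in mD3AKO. The 4858 clusters with 30 or more CpGs but no promoter CpG had medians of 7.06% and 5.52%. At the limit of the rule, 46 promoter clusters with 30 CpGs had a WT median of 1.56% and 54 with 29 CpGs one of 1.59%.

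WT samples had a mean level over the 8645 clusters of 2.71% ± 0.143 (SD, n = 21), and mD3AKO samples one of 2.44% ± 0.127 (SD, n = 23). By time, WT samples averaged 2.73% ± 0.171 (rest), 2.64% ± 0.0961 (10 min), 2.77% ± 0.189 (30 min) and 2.69% ± 0.116 (60 min). The mD3AKO samples averaged 2.52% ± 0.152, 2.45% ± 0.120, 2.43% ± 0.115 and 2.40% ± 0.127 at those times. The difference of -0.266 percentage points was larger than the SD between samples, and single samples overlapped (2.44 to 2.91% in WT, 2.20 to 2.67% in mD3AKO). The median over the clusters within each sample was 0.327% ± 0.149 in WT and 0.340% ± 0.137 in mD3AKO. Both lie under the 0.408% that 0 methylated calls allow at the median depth. That limit is for 1 cluster in 1 sample, and its part in these medians was not tested. The medians of the genotypes differed by less than the SD between samples and did not show the fall of the mean. The medians of single samples ran from 0% in mD3AKO sample 19, with 5277226 calls in the clusters, to 0.576% in mD3AKO sample 29, with 15770203. Their order did not follow depth throughout. WT sample 1, with the fewest calls (4989907), was at 0.281%, and mD3AKO sample 12, with 11064790, at 0.255%. The median of the cluster means was 0.702% in WT and 0.667% in mD3AKO.

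**Figure D1:**
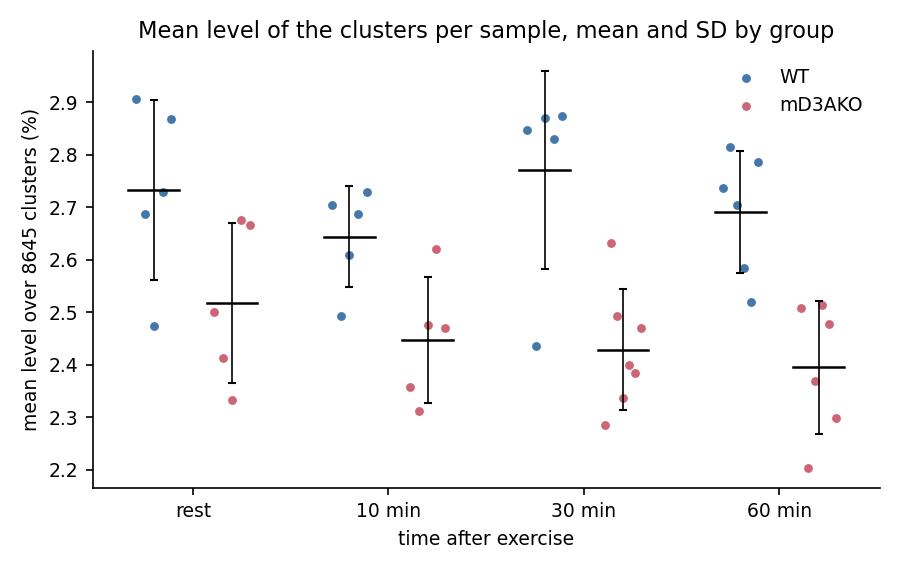
Mean methylation level over the 8645 CpG-dense promoter clusters (y axis, %, not starting at 0) for each sample, by time after exercise and genotype. Points are samples, horizontal bars group means and error bars SD; the mD3AKO mean lies below the WT mean at each time, with samples that overlap.

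A small set of these promoters was less methylated in mD3AKO. In the edgeR quasi-likelihood test, adjusted over all 51038 clusters, 101 CpG-dense promoter clusters (1.17%) were called at an adjusted p under 0.05, beside 1.1% of all clusters. Of these, 99 were lower in mD3AKO (1.15%, beside 1.09% of all clusters) and 2 were higher (0.00588% of all clusters). At an unadjusted p under 0.05 there were 794 clusters, 548 lower and 246 higher. The likelihood ratio test called 213 of the 8645 clusters (beside 1414 of all 51038, 2.77%), a quasi-binomial model 155 (beside 1296, 2.54%) and limma 143 (beside 895, 1.75%). Of the quasi-likelihood calls, 101, 89 and 100 were among them. By the quasi-likelihood test the share called was thus near that of the whole table. By the other tests it was below that of the whole table, most so in the quasi-binomial model. Over the clusters the median log2 odds ratio of mD3AKO over WT was -0.06, beside -0.15 over all clusters.

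The 99 clusters that fell had a median level of 4.80% in WT and 1.24% in mD3AKO, and their WT levels ran from 1.32 to 21.3%. The falls ranged from 0.809 to 13.9 percentage points with a median of 3.51, and 64 of the 99 were at 2% or less in mD3AKO. The mD3AKO group lay below the WT group at all 4 times in 95 of them. The test that picked these clusters averaged over the same 4 times, so this count is partly built in. Within single times 10 to 12 samples were compared, with the dispersion of the fit to all 44 samples. Of the 8645 clusters, 2 were called at rest, beside 3 of all 51038 clusters (0.00588%). At 10 min 4 were called, beside 7 of all (0.0137%). At 30 min there were 3, beside 9 of all (0.0176%), and at 60 min 2, beside 4 of all (0.00784%).

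**Figure D2:**
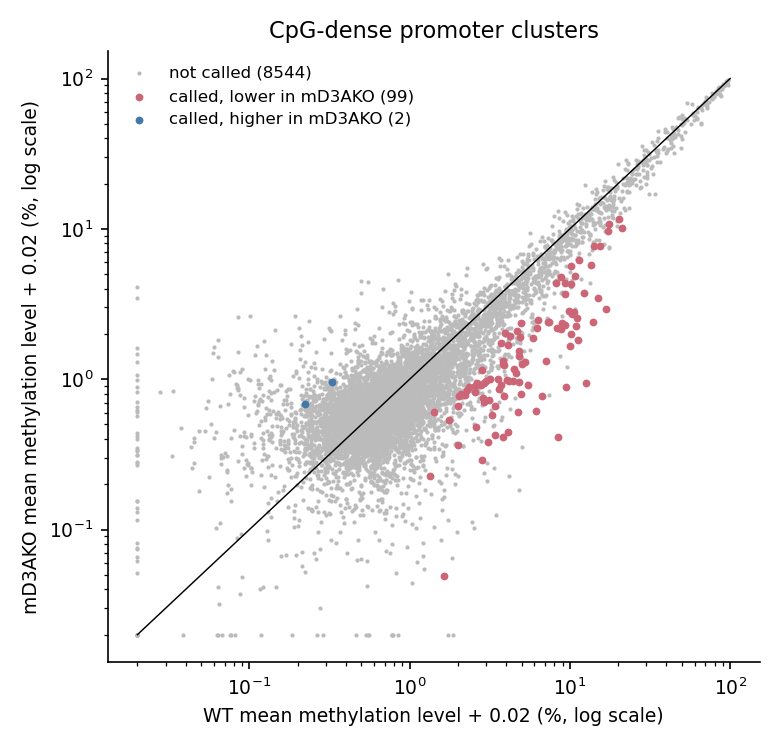
Mean level of each of the 8645 clusters in WT (x axis) and mD3AKO (y axis), in % with 0.02 added, on log axes; the line marks equal levels. The 99 clusters called lower in mD3AKO lie below the line at WT levels of 1.32 to 21.3%, and the 2 called higher lie under 1% in both genotypes.

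Calls were unevenly spread over the range of levels. Among clusters at 0.5 to 1%, 3 of 3646 were called lower (0.0823%), at 1 to 2% 24 of 1274 (1.88%), at 2 to 5% 40 of 728 (5.49%) and at 5 to 20% 32 of 474 (6.75%). None of the 2314 clusters under 0.5%, the 170 at 20 to 80% or the 39 at 80% or more was called lower by edgeR. In all clusters of the table, 0% were called lower under 0.5%, 0.0831% at 0.5 to 1% and 1.31% at 1 to 2%. The near absence of calls under 1% was thus shared with the whole table. At higher levels the shares called lower over all clusters were 3.84% at 2 to 5%, 3.70% at 5 to 20%, 1.16% at 20 to 80% and 0.191% at 80% or more. The share of clusters with a lower mean in mD3AKO was 47.0% under 0.5%, 54.7% at 0.5 to 1%, 65.9% at 1 to 2%, 72.1% at 2 to 5%, 77.6% at 5 to 20%, 71.2% at 20 to 80% and 71.8% at 80% or more. Over all clusters of the table these shares were 47.6%, 55.3%, 63.2%, 67.7%, 71.9%, 65.1% and 59.7%. At 5 to 20% the median level was 9.58% in WT and 7.90% in mD3AKO. Depth differed along the scale too, since the clusters at 20% or more had a median of 3 covered CpGs and those at 0.5 to 1% one of 10. It also differed from the rest of the table. At 2 to 5% and 5 to 20% the medians were 7 and 6 covered CpGs, beside 4 and 2 over all clusters. The part of depth in the uneven calls was not tested.

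Levels were lowest at the start site and rose on both sides. Over the promoter CpGs of all 8645 clusters, the WT mean within 200 bp before the start was 1.03% ± 0.0373 (SD, n = 21) and the mD3AKO mean 0.945% ± 0.0295 (SD, n = 23). From 500 to 1000 bp after the start it was 2.90% ± 0.173 and 2.54% ± 0.140, and from 500 to 1000 bp before the start 3.31% ± 0.226 and 2.84% ± 0.145. The CpGs 2000 to 3000 bp before the start, in 165 clusters, were at 7.01% ± 0.357 and 6.26% ± 0.395. In percentage points the difference between genotypes widened with distance, from -0.0849 just before the start to -0.748 in that last bin. The WT level rose between the same bins, from 1.03% to 7.01%. The points therefore do not show a difference that grew relative to the level. CpGs in untranslated regions were lowest (1.12% in WT, 1.04% in mD3AKO) and those in coding exons highest (2.98% and 2.70%), with introns (1.96% and 1.70%) between.

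The clusters that fell were not confined to the distant bins. Their CpGs had 4.87% ± 0.789 in WT and 1.42% ± 0.327 in mD3AKO within 200 bp before the start, 3.82% ± 0.649 and 1.07% ± 0.277 within 200 bp after it, and 8.66% ± 2.43 and 2.79% ± 0.646 at 1000 to 2000 bp before it, the last from 8 clusters. The median distance of a cluster to the nearest start was 256 bp for those that fell and 158 bp for all, and 67.7% against 84.6% lay within 500 bp. Coding exons held 26.8% of the CpGs of the clusters that fell and 17.5% of those of all clusters, introns 34.2% and 27.3%, and untranslated regions 16.5% and 29.1%. These shares describe clusters picked by the genotype test and were not themselves tested. Of the 1294 CpGs in the 99 clusters, 1036 (80.1%) were lower in mD3AKO, beside 49.4% of CpGs over all 8645 clusters. The 99 were picked because the summed calls of these CpGs were lower, so a majority of lower CpGs follows from the choice.

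**Figure D3:**
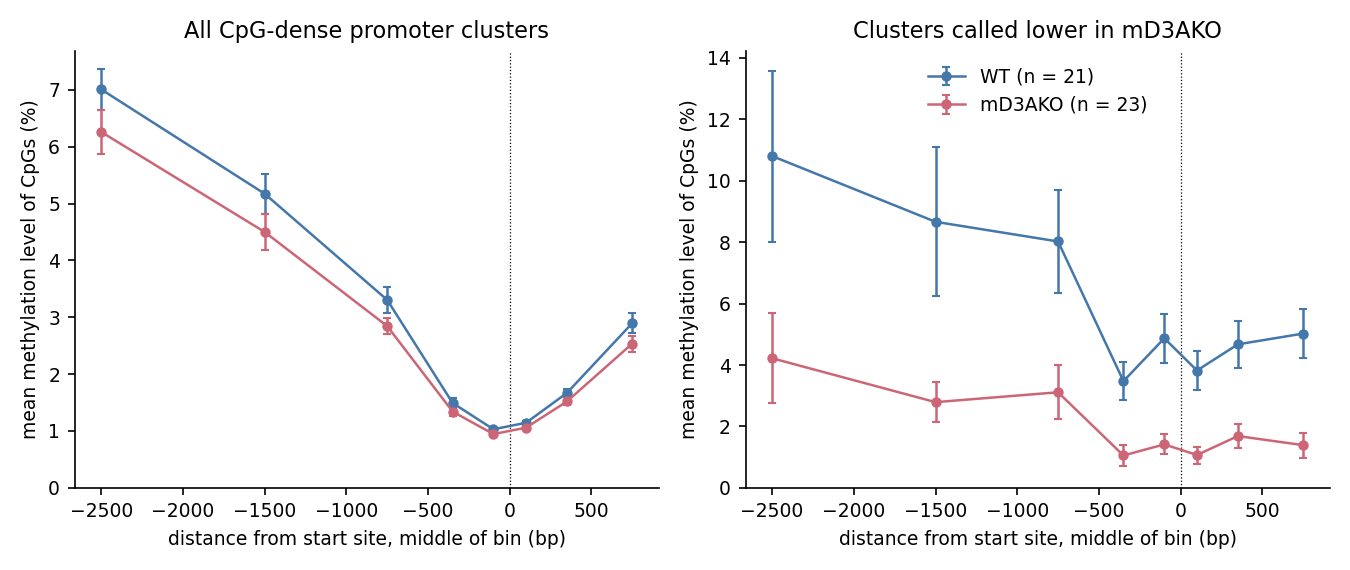
Mean level of promoter CpGs (y axis, %) by distance from the nearest start site (x axis, bp, middle of each bin), in all clusters (left) and in those called lower in mD3AKO (right). Points are means over samples and error bars SD (21 WT, 23 mD3AKO). All clusters dip to 1.03% and 0.945% just before the start. In the clusters called lower, which were picked for that direction, the mD3AKO mean is below the WT mean in every bin.

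The cluster with the smallest p lay in coding sequence of Fut11, a gene of the fucosyltransferase family (chromosome 14, 20695012 to 20695656, mm10, 22 CpGs, 35 to 679 bp after the start). Its WT levels ranged from 2.27 to 20.2% (median 7.40%) and its mD3AKO levels from 0 to 1.14% (median 0.264%), so that all 23 mD3AKO samples were below all 21 WT samples. At rest the WT samples were at 2.27, 4.03, 5.19, 5.25 and 20.2%, and the mD3AKO samples at 0.120, 0.196, 0.558, 0.605 and 0.730%. At 10 min the WT samples were at 5.11, 6.31, 7.01, 8.87 and 12.2%, and the mD3AKO samples at 0.0590, 0.0718, 0.193, 0.379 and 0.519%. At 30 min they were 7.48, 8.84, 10.4, 10.5 and 18.7% in WT and 0.113, 0.264, 0.346, 0.389, 0.507, 0.937 and 1.14% in mD3AKO, and at 60 min 3.25, 4.37, 7.28, 7.40, 8.09 and 14.4% and 0, 0.143, 0.147, 0.228, 0.232 and 1.09%. WT levels thus varied several-fold among mice killed at the same time, and every mD3AKO sample was low. The means were 8.44% ± 4.71 (SD, n = 21) and 0.390% ± 0.327 (SD, n = 23), with a log2 odds ratio of -4.72 (SE 0.35, adjusted p = 4.93e-12). All 22 CpGs were lower in mD3AKO, and the 13 CpGs of the printed stretch had WT means of 0.993 to 12.5% and mD3AKO means of 0 to 2.13%.

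Ucn encodes urocortin, a peptide of the corticotropin-releasing factor family. Its cluster (chromosome 5, 31136926 to 31139018, 18 CpGs) reached from 189 bp before the start to coding sequence of the neighbouring Trim54. WT samples ranged from 8.04 to 25.3% (median 16.1%) and mD3AKO samples from 0.434 to 6.81% (median 3.40%), again without overlap. At rest the Ucn levels were 8.04, 8.93, 9.12, 18.0 and 19.0% in WT and 1.28, 1.81, 3.35, 4.32 and 6.81% in mD3AKO. At 10 min the Ucn levels were 9.28, 11.8, 19.8, 20.0 and 20.8% in WT and 0.434, 1.38, 3.15, 3.78 and 5.34% in mD3AKO. The highest WT sample was more than 2 times the lowest at both times. At 30 min the Ucn levels were 9.68, 10.9, 16.1, 17.2 and 25.3% in WT and 2.34, 2.92, 2.98, 3.19, 4.10, 4.22 and 6.71% in mD3AKO. At 60 min the Ucn levels were 10.1, 11.1, 14.3, 17.8, 17.9 and 19.8% in WT and 2.17, 3.40, 3.50, 3.66, 3.95 and 4.13% in mD3AKO. The means of 15.0% ± 5.03 (SD, n = 21) and 3.43% ± 1.54 (SD, n = 23) gave a log2 odds ratio of -2.42 (SE 0.25, adjusted p = 1.1e-07). All 18 CpGs were lower, from those before the start (4.47 to 29.0% in WT) to those in coding sequence (4.20 to 15.3% in WT). The printed stretch held 1 copy of TGACGTCA, the sequence of the cAMP response element, which reads the same on both strands and was found in 588 of 32851 RefSeq promoters of 300 bases (1.79%). The CpG in it was at 16.1% ± 12.5 in WT and 0.308% ± 0.790 in mD3AKO. Fut11 and Ucn were the 2 of the 8645 clusters in which all mD3AKO samples were below all WT samples (0.0231%, beside 0.00784% of all clusters).

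Mmp23 encodes a matrix metalloproteinase. Its cluster (chromosome 4, 155653952 to 155655110, 15 CpGs) lay at -1726 to -568 bp from the start, partly in the neighbouring Mib2. WT samples ranged from 3.84 to 19.6% (median 11.3%) and mD3AKO samples from 1.14 to 4.60% (median 2.51%), with a slight overlap. At rest the Mmp23 levels were 3.84, 7.06, 7.09, 14.1 and 17.0% in WT and 1.96, 2.51, 2.71, 2.75 and 4.13% in mD3AKO. At 10 min the Mmp23 levels were 8.66, 11.4, 12.0, 15.8 and 19.6% in WT and 1.37, 1.43, 2.38, 3.53 and 3.60% in mD3AKO. The genotypes overlapped at rest and did not at 10 min. At 30 min the Mmp23 levels were 3.90, 9.71, 10.0, 14.9 and 19.07% in WT and 1.14, 1.503, 1.72, 2.66, 3.01, 3.64 and 4.60% in mD3AKO. At 60 min the Mmp23 levels were 4.59, 7.52, 8.01, 11.3, 11.5 and 13.8% in WT and 1.52, 1.57, 1.99, 2.43, 2.76 and 3.71% in mD3AKO. The overlap with mD3AKO came from 3 WT samples under 4.60%. The means were 11.0% ± 4.66 (SD, n = 21) and 2.55% ± 0.972 (SD, n = 23), with a log2 odds ratio of -2.20 (SE 0.24, adjusted p = 1.48e-07). The CpGs lay in 3 blocks, of which the 5 CpGs nearest the start were at 0.808 to 3.61% in WT and 0.929 to 2.06% in mD3AKO. The next 6, printed above, were at 9.90 to 18.9% in WT and 0.750 to 1.33% in mD3AKO. The 4 farthest were at 6.62 to 34.0% and 2.27 to 15.4%. The CpGs nearest the start were thus low in both genotypes.

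Ctxn1 encodes cortexin 1, a membrane protein known from the brain. Its 14 covered CpGs (chromosome 8, 4258672 to 4258852) were intronic. WT samples ranged from 1.79 to 8.34% (median 4.16%) and mD3AKO samples from 0 to 2.51% (median 0.256%), which overlapped at their edges. At rest the Ctxn1 levels were 1.97, 3.50, 4.28, 6.05 and 7.20% in WT and 0, 0.0930, 0.111, 0.225 and 1.49% in mD3AKO. At 10 min the Ctxn1 levels were 2.46, 3.08, 3.799, 5.98 and 8.34% in WT and 0, 0.0903, 0.107, 0.182 and 0.823% in mD3AKO. At each of these times the highest mD3AKO sample was below the lowest WT sample. At 30 min the Ctxn1 levels were 3.82, 3.86, 4.14, 4.16 and 4.69% in WT and 0.256, 0.578, 0.652, 0.671, 0.840, 1.78 and 2.51% in mD3AKO. At 60 min the Ctxn1 levels were 1.79, 3.05, 5.63, 6.60, 6.75 and 7.44% in WT and 0, 0.109, 0.244, 0.386, 0.994 and 1.35% in mD3AKO. The overlap of the whole groups came from single samples of different times. The means were 4.70% ± 1.87 (SD, n = 21) and 0.587% ± 0.660 (SD, n = 23), with a log2 odds ratio of -3.81 (SE 0.42, adjusted p = 1.48e-07). Within 182 bp, single CpGs spanned 0.301 to 15.0% in WT and 0 to 1.69% in mD3AKO. The 2 CpGs that were not lower in mD3AKO were at 0.671 and 0.301% in WT. At a coverage of 20 reads in every sample 3 CpGs remained, with means of 3.48 and 1.10% and an adjusted p of 0.274 in edgeR.

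**Figure D4:**
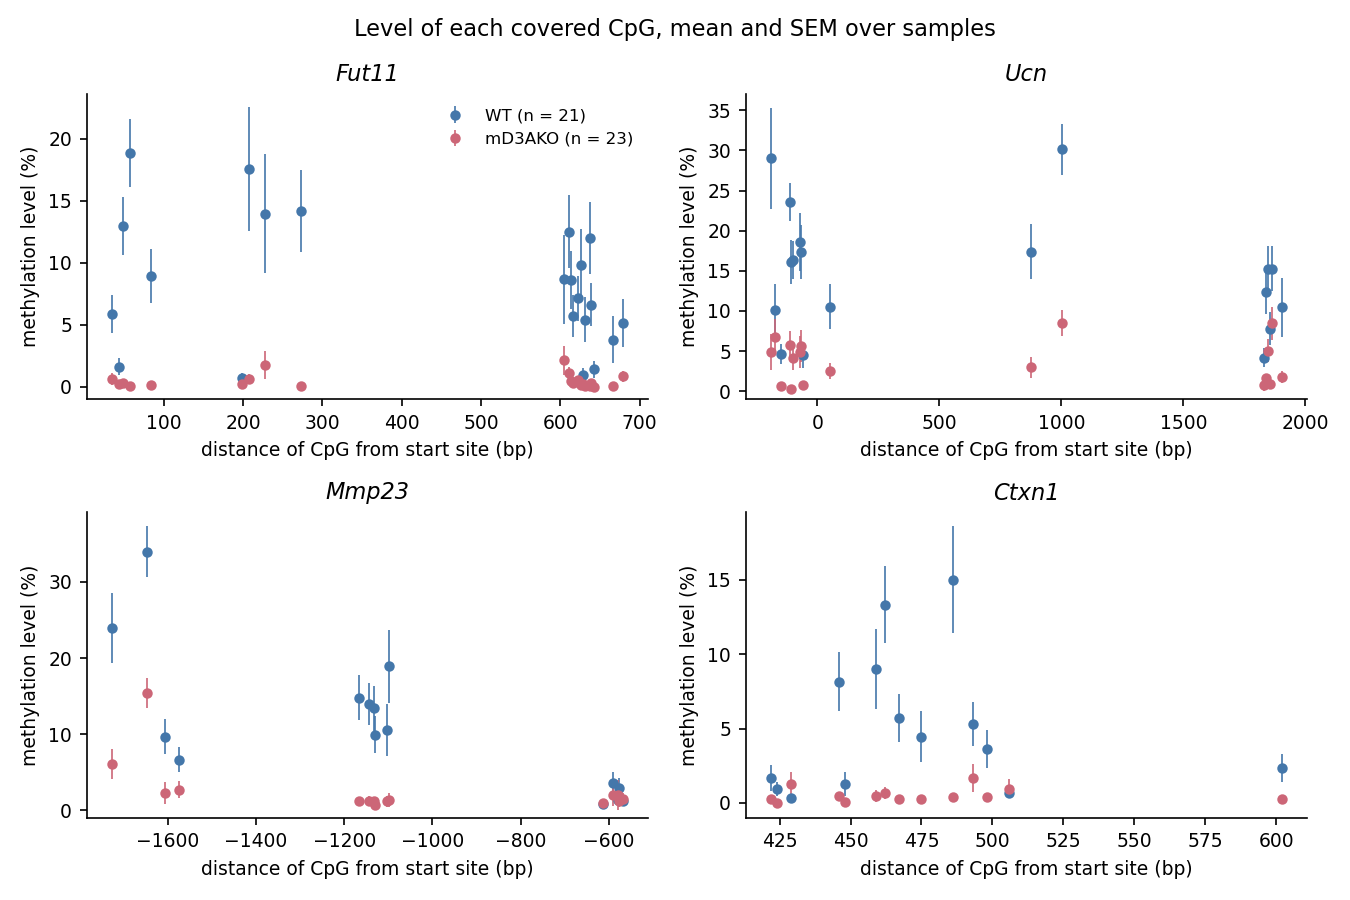
Mean level (y axis, %) of each covered CpG of the Fut11, Ucn, Mmp23 and Ctxn1 clusters by its distance from the start site (x axis, bp); error bars are SEM over 21 WT and 23 mD3AKO samples. Neighbouring CpGs in WT differ many-fold, as in Ctxn1 (0.301 to 15.0%), and the Mmp23 CpGs nearest the start are low in both genotypes.

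At Lix1l (chromosome 3, 96598362 to 96598797) the 18 CpGs lay at -2787 to -2352 bp from the start, in coding sequence of Ankrd34a, so the promoter label rests on the wide window the authors used. WT samples ranged from 5.77 to 20.5% (median 9.71%) and mD3AKO samples from 0.463 to 6.77% (median 2.34%), with a log2 odds ratio of -2.16 (SE 0.26, adjusted p = 1.1e-06). At rest the Lix1l levels were 7.33, 7.51, 9.43, 12.0 and 12.8% in WT and 0.571, 2.29, 2.74, 3.77 and 5.90% in mD3AKO. At 10 min the Lix1l levels were 5.77, 5.90, 6.69, 9.71 and 14.1% in WT and 0.463, 2.01, 2.02, 2.14 and 3.11% in mD3AKO. The genotypes did not overlap at either time. At 30 min the Lix1l levels were 6.43, 6.68, 7.71, 10.1 and 11.9% in WT and 2.00, 2.34, 2.61, 2.91, 3.50, 4.12 and 6.77% in mD3AKO. At 60 min the Lix1l levels were 7.43, 13.4, 13.6, 14.4, 19.4 and 20.5% in WT and 0.675, 2.05, 2.07, 2.17, 3.09 and 4.26% in mD3AKO. At 30 min the highest mD3AKO sample was above the lowest WT samples. WT averaged 14.8% ± 4.72 (SD, n = 6) at 60 min and 8.43 to 9.81% at the other times. Lix1l was not called for time or the interaction, with unadjusted p-values of 0.372 and 0.202 in the edgeR quasi-likelihood test. At Ppp1r18, the gene of phostensin, an actin-binding partner of protein phosphatase 1 (chromosome 17, 35866369 to 35867240, 24 CpGs), WT samples ranged from 2.06 to 8.99% (median 4.56%) and mD3AKO samples from 0.438 to 2.70% (median 1.17%). At rest the Ppp1r18 levels were 3.22, 3.39, 5.26, 6.09 and 7.27% in WT and 0.835, 1.27, 1.37, 2.09 and 2.52% in mD3AKO. At 10 min the Ppp1r18 levels were 3.47, 3.61, 3.89, 4.72 and 5.61% in WT and 0.438, 1.99, 2.16, 2.50 and 2.70% in mD3AKO. The genotypes did not overlap at either time. At 30 min the Ppp1r18 levels were 3.15, 3.93, 4.56, 7.54 and 8.99% in WT and 0.641, 0.768, 1.05, 1.05, 1.09, 1.18 and 1.81% in mD3AKO. At 60 min the Ppp1r18 levels were 2.06, 4.23, 4.47, 4.71, 5.02 and 5.51% in WT and 0.620, 0.948, 1.01, 1.04, 1.17 and 2.31% in mD3AKO. At 60 min the lowest WT sample was below the highest mD3AKO sample. The log2 odds ratio was -1.85 (SE 0.23, adjusted p = 2.93e-06). In each of these 6 clusters all 23 mD3AKO samples were below the WT mean, which is partly built in for clusters picked by p for genotype.

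**Figure D5:**
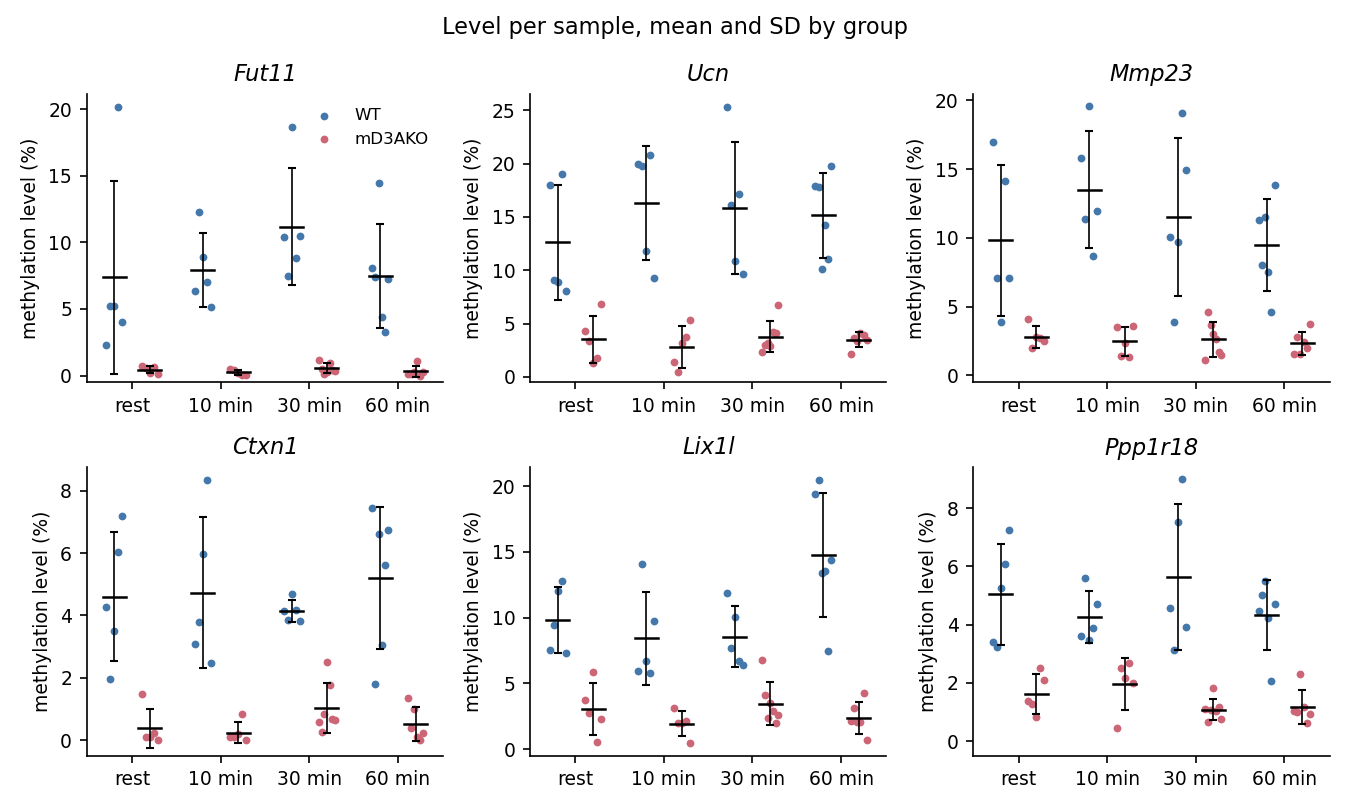
Level (y axis, %) of the 6 clusters with the smallest p for genotype in each sample, by time after exercise. Points are samples, bars group means and error bars SD; in Fut11 and Ucn no mD3AKO sample reaches the lowest WT sample (2.27% and 8.04%).

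The next 9 clusters by p were those of Comtd1, Inafm1, Myl12b, Wwc2, Gpx7, Fam43a, Fam129b, Mga and Zfp36l2. Their adjusted p-values ran from 2.93e-06 at Comtd1 to 0.000390 at Zfp36l2 in the edgeR test. All 23 mD3AKO samples were below the WT mean at each, again partly through the choice by p. Myl12b, a regulatory light chain of non-muscle myosin, fell from 6.09% ± 3.89 (SD, n = 21) to 0.597% ± 0.798 (SD, n = 23), with 18 CpGs on both sides of the start. Gpx7, a glutathione peroxidase of the endoplasmic reticulum, fell from 8.73% ± 5.06 to 2.14% ± 2.22 over 9 intronic CpGs. Mga, a transcription factor that pairs with MAX, fell from 6.71% ± 5.34 to 0.757% ± 0.691, and all 14 CpGs were lower. At a coverage of 20 reads 1 CpG of Mga remained, with means of 4.94 and 2.53% and an adjusted p of 0.92 in edgeR. Wwc2, a scaffold of the Hippo pathway, fell from 3.37% ± 2.78 to 0.403% ± 0.726 over 12 CpGs 300 to 520 bp before its start. Zfp36l2, which binds AU-rich elements of mRNAs, fell from 2.87% ± 1.12 to 0.727% ± 0.521 over 37 covered CpGs, 36 of them coding. The WT means of the 9 lay between 2.87 and 8.73%, and the mD3AKO means between 0.392 and 2.14%.

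Both clusters called higher in mD3AKO were under 1% in the mean of either genotype. The cluster shared by the promoters of Fbxl15, an F-box protein, and Psd, an exchange factor for ARF6 (chromosome 19, 46328497 to 46329189, 21 CpGs), ranged from 0 to 1.73% (median 0.156%) in WT and from 0.0959 to 2.10% (median 0.782%) in mD3AKO. The groups overlapped over most of their range, and 20 of 23 mD3AKO samples were above the WT mean. The means were 0.309% ± 0.432 (SD, n = 21) and 0.942% ± 0.559 (SD, n = 23), with a log2 odds ratio of 2.08 (SE 0.44, adjusted p = 0.00613). With only the 8 CpGs of 20 or more reads in every sample, the adjusted p was 0.617 in edgeR. Dennd4c, an exchange factor for Rab proteins (chromosome 4, 86748680 to 86748751, 12 CpGs, all in the untranslated region), ranged from 0 to 2.84% (median 0%) in WT and from 0 to 2.20% (median 0.474%) in mD3AKO. The means were 0.201% ± 0.617 and 0.666% ± 0.672, with a log2 odds ratio of 2.51 (SE 0.63, adjusted p = 0.0309), and 14 of 23 mD3AKO samples were above the WT mean. The WT mean rested on sample 18 at 60 min (2.84%), without which it was 0.0693%, with 20 of 23 mD3AKO samples above it. Dennd4c had an adjusted p of 0.213 in the quasi-binomial model.

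The most methylated clusters were above 90% in the mean of both genotypes. Tuba3b, an alpha tubulin of the testis (chromosome 6, 145616016 to 145616058, 6 CpGs), had a WT mean of 97.4% ± 2.26 (SD, n = 21) and an mD3AKO mean of 97.5% ± 2.32 (SD, n = 23). Tnni3, cardiac troponin I (chromosome 7, 4523966 to 4523984), was at 95.3% ± 5.33 and 93.8% ± 6.30 over the 3 CpGs printed above. Ankrd31, a protein of meiosis, was at 95.5% ± 8.10 and 94.6% ± 10.3, and Dpep3, a dipeptidase of the testis, at 94.8% ± 7.00 and 96.1% ± 3.78. Dennd1c, whose 5 CpGs lay in coding sequence of Tubb4a, was at 94.1% ± 3.65 and 91.8% ± 4.28. The others of the 8 clusters with the highest WT level were 4933415F23Rik (97.2% ± 6.12 and 97.1% ± 6.34), Gm10093 (96.7% ± 6.73 and 90.0% ± 11.8) and Gm13090 (95.6% ± 5.83 and 94.6% ± 5.15), on 1, 1 and 2 covered CpGs. The adjusted p-values of the 8 ran from 0.489 at Gm10093 to 1 in the edgeR test. Over the 39 clusters at 80% or more the median difference was -1.01 percentage points.

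The 3 runs with the most CpGs belonged to Mn1 (440), Ubtf (418) and Arid1b (383). Mn1 had a WT mean of 7.74% ± 3.34 (SD, n = 21) and an mD3AKO mean of 8.45% ± 4.63 (SD, n = 23) over 40 covered CpGs. Ubtf, a factor of ribosomal RNA transcription, was at 0.558% ± 0.427 and 0.504% ± 0.377. Arid1b, a subunit of the BAF chromatin remodeller, was at 0.374% ± 0.396 and 0.601% ± 0.751. None of the 3 was called by edgeR, with adjusted p-values of 0.976, 0.997 and 0.928.

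Groups of genes with textbook roles were described by their counts, beside 1.1% called and a median log2 odds ratio of -0.15 over all clusters. An unadjusted p under 0.05 was found in 9.57% of all clusters and in 9.18% of the 8645, against which such counts are to be read. Genes of imprinted regions were found in 22 clusters, of which 9 were at 20% or more in WT and 0 were called by edgeR (1 at an unadjusted p under 0.05). Their median log2 odds ratio was 0.12. The most methylated were Mkrn3 (62.0% ± 24.2 in WT and 59.8% ± 20.9 in mD3AKO) and Nap1l5 (47.1% ± 19.0 and 45.6% ± 20.6), each on 1 CpG. With more CpGs, and chosen after their values were seen, Zrsr1 was at 43.2% ± 10.3 and 47.6% ± 10.0 over 17, and Cdkn1c, an inhibitor of the cell cycle, at 29.2% ± 11.0 and 30.8% ± 11.3 over 13.

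Genes used in germ cells were found in 16 clusters, with a median of 34.2% in WT and 38.2% in mD3AKO. Their median difference of 0.224 percentage points and median log2 odds ratio of -0.01 differed in sign. Of these 0 were called by edgeR, and 0 had an unadjusted p under 0.05. Beside Tuba3b and Dpep3, 2 further genes were chosen after their values were seen. Asz1, a germ cell protein, was at 90.1% ± 7.40 and 90.5% ± 5.91 over 3 CpGs. Sohlh2, a transcription factor of early germ cells, was at 83.4% ± 2.44 and 83.8% ± 3.68 over 7 CpGs.

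Homeobox genes, which pattern the embryo, were found in 159 clusters, with medians of 2.02% in WT and 1.82% in mD3AKO and a median log2 odds ratio of -0.14. Of these 0 were called by edgeR, and 13 had an unadjusted p under 0.05. Hoxd12 had the highest WT level (24.5% ± 6.10, beside 23.2% ± 6.40 in mD3AKO), before Hoxd10 (22.6% ± 11.9 and 17.5% ± 10.2). Other developmental transcription factors were found in 126 clusters, with a median log2 odds ratio of -0.18. Of these 14 had an unadjusted p under 0.05 and 5 fell, beside 1.09% called lower over all clusters. These 5 were named after their values were seen. They were Hey2, a Notch target (11.3% ± 4.84 to 6.14% ± 2.40), Sim2 (7.36% ± 3.27 to 2.38% ± 1.47), Klf16 (3.70% ± 1.25 to 1.73% ± 1.10), Gli2 of the Hedgehog pathway (2.54% ± 1.98 to 0.886% ± 0.570) and Foxo3 (2.00% ± 2.03 to 0.348% ± 0.356). Tbx18 (42.6% ± 26.4 and 37.1% ± 26.1, on 1 CpG) and Foxj1, a factor of motile cilia (29.9% ± 9.02 and 28.7% ± 9.93), had the highest WT levels of that list and were not called.

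Genes of muscle identity and contraction were found in 22 clusters, with medians of 0.798% in WT and 0.950% in mD3AKO. The median of their differences, -0.102 percentage points, and their median log2 odds ratio of -0.23 had the opposite sign to the shift of the medians. Of these 0 were called by edgeR, and 4 had an unadjusted p under 0.05. Mybpc2, the fast-fibre myosin-binding protein C, was at 19.5% ± 10.3 (SD, n = 21) and 10.5% ± 4.42 (SD, n = 23), with all 23 mD3AKO samples below the WT mean and an adjusted p of 0.106. Myod1, a master factor of myogenesis, was at 5.55% ± 2.19 and 5.50% ± 2.95. Exercise-responsive genes were found in 46 clusters, with medians of 0.7099% and 0.541%, of which 0 were called by edgeR and 3 had an unadjusted p under 0.05. Egr3, an immediate early gene, was at 10.4% ± 3.24 and 11.5% ± 3.96 over 41 CpGs. Klf15, a transcription factor of muscle metabolism, was at 5.37% ± 2.64 and 2.97% ± 2.00 (adjusted p = 0.170).

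Genes of families with housekeeping roles were found in 190 clusters. The list had 12 entries that matched 186 genes, so not every gene in it need be a housekeeping gene. The medians were 0.607% and 0.571%, with a median difference of -0.0159 percentage points and a median log2 odds ratio of the other sign, 0.12. An unadjusted p under 0.05 was found in 11. The 2 that fell, named after their values were seen, were Eif1a (2.55% ± 1.67 to 0.806% ± 0.571) and Polr2i (2.32% ± 1.55 to 0.870% ± 0.675). Atp5d (33.7% ± 28.9 and 17.0% ± 19.9) and Cox4i2 (14.3% ± 13.4 and 10.0% ± 12.1) had the highest WT levels, each on 1 CpG, and were not called. The Atp5d CpG lay at -2212 bp from the start, in a coding exon of the neighbouring Cbarp. Genes that write, read or erase DNA methylation were found in 14 clusters, of which 3 had an unadjusted p under 0.05 and 1 was called. Their median difference was 0.0496 percentage points and their median log2 odds ratio, of the other sign, -0.10. The one called was Kdm2a, a histone demethylase that binds unmethylated CpGs, which fell from 3.79% ± 1.56 (SD, n = 21) to 1.30% ± 0.634 (SD, n = 23) over 41 covered CpGs, with a log2 odds ratio of -1.65 (SE 0.29, adjusted p = 0.000789). Uhrf2 had the highest WT level of the list (6.99% ± 2.80 and 5.94% ± 2.47), and the promoter of Dnmt3a itself was at 0.283% ± 0.328 and 0.504% ± 0.978. Genes that mark other cells of muscle were found in 16 clusters, of which 0 were called by edgeR and 1 had an unadjusted p under 0.05. They were led by Gata2 (10.8% ± 3.50 and 9.06% ± 3.35) and Sox7 (9.52% ± 2.98 and 8.04% ± 2.90). The Gata2 CpGs lay at -4199 to -2649 bp from the nearest start in the annotation used here, mostly farther than the promoter window. Cell shares were not measured, and their part in the genotype differences was not tested.

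No CpG-dense promoter cluster was called for time after exercise or for an interaction of time and genotype in the edgeR quasi-likelihood test (0 of 8645, and 0% of all clusters, for both). At an unadjusted p under 0.05 there were 380 clusters for time (4.40%, beside 2.87% of all clusters) and 369 for the interaction (4.27%, beside 2.75%). All of these shares were below the 0.05 that evenly spread p-values would give. The clusters also had more calls, with a median of 735 per cluster and sample beside 177 over all clusters. The part of depth in these shares was not tested. The likelihood ratio test called 5 for time (0.0196% of all clusters) and 1 for the interaction (0.0137%). The quasi-binomial model called 0 for both (0% of all clusters). limma called 0 for both as well, beside 0% of all clusters for time and 0.00196% for the interaction.

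The smallest p-values for time were those of Zfp692 and Thap3. Zfp692, on 2 CpGs and a median of 99.5 calls per sample, had rest means of 15.1% ± 14.6 (SD, n = 5) for WT and of 2.87% ± 3.72 (SD, n = 5) for mD3AKO. Without sample 11, at 38.1% from 21 calls, the WT rest mean was 9.37%, and without sample 24 the mD3AKO rest mean was 1.32%. The means of its other groups lay between 0 and 2.41%. Thap3 was at 6.73% ± 3.35 in WT and 3.38% ± 1.94 in mD3AKO at 10 min, and at 1.12% ± 2.04 and 0.674% ± 0.679 at rest. Without sample 14 the WT rest mean of Thap3 was 0.211%, and without sample 12 the mD3AKO rest mean was 0.439%. The smallest p-values for the interaction were those of Adgrb3, an adhesion receptor, and Sike1. Adgrb3 was at 0.0329% ± 0.0807 in mD3AKO and 2.38% ± 1.76 in WT at 60 min (SD, n = 6 each), and at 3.72% ± 2.80 and 1.54% ± 1.38 at 30 min. In mD3AKO at 60 min, 1 sample of Adgrb3 was above 0. Sike1 was at 4.38% ± 2.76 in WT at 30 min and at 0 to 0.104% at the other times. In mD3AKO its mean at rest was 2.04% ± 3.26, and after exercise it was 0.164%, 0.409% and 0.505% in order of time. Without sample 8 (7.84%) the mD3AKO rest mean of Sike1 was 0.591%. All 4 had an adjusted p of 1 in the edgeR quasi-likelihood test.

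RRBS reads carry no molecular identifiers, so limits from the number of calls cover counting error only, and the tests rest on the spread between samples.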

How the data were processed

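Methylation was measured by RRBS (75-bp single-end reads) in soleus of WT and mD3AKO mice. The authors trimmed reads with Trim Galore 0.4.0 and cutadapt 1.9.1, aligned them to mm10 with Bismark 0.18.1, added both strands and kept CpGs with 8 or more reads in every sample, without chromosomes M, X and Y. They deposited methylated and unmethylated counts per CpG with cluster, promoter (GENCODE M15) and CpG number. Counts of 44 of 50 samples were in the table. The other 6 were not used here, 1 of them with conflicting genotype labels.

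Counts were summed per cluster, with no further filter. All 51038 clusters were fitted with edgeR 4.0.16 (R 4.3.3): 1 coefficient per sample, 8 group means, a common dispersion from every 10th cluster, no trend, and the two-sided quasi-likelihood F test with Benjamini-Hochberg adjustment over all clusters, calls being at an adjusted p under 0.05. A log2 odds ratio is the log2 ratio of methylated to unmethylated calls in mD3AKO over that in WT. Sample coefficients absorb depth, so no other library scaling applies. Alternatives were the likelihood ratio test, a quasi-binomial model (pseudocount 0.5), limma 3.58.1 (pseudocount 1), a coverage of 20, a 1% filter, sex, other cluster rules, subsets of times and samples left out. The quasi-likelihood, likelihood ratio, quasi-binomial and limma fits were tried on simulated counts, for genotype and time only. The interaction and the other alternatives were not simulated. Positions and sequences came from GENCODE M21 and GRCm38.p6, and promoters of 300 bases from RefSeq.

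Named clusters were the 15 with the smallest p among those lower in mD3AKO, those called higher, the 8 with the highest WT level, the 3 with the most CpGs, 2 each for time and interaction, and the 2 with the highest WT level per gene list. The clusters and gene lists were chosen with earlier results of these data known.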

Additional observations from a re-analysis of the deposited data

Results flagged for a closer look

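In 26 of 104 groups of samples, over 13 measures, 1 sample lay far from the others by Dixon's criterion. Chance gives this in about 1 group in 20 when values are normally distributed. Several of the measures were levels close to no methylation, where that rate need not hold. In some groups of Zfp692, Adgrb3 and Sike1, all other samples had no methylated call, so any call set the remaining sample apart. The count of 26 therefore cannot be read as an excess over chance. Sample numbers are those of the labels, and no cause was tested. For the mean level over all clusters, WT sample 32 at 30 min was lowest at 2.44%, the others being at 2.83 to 2.87%. For Fut11, WT sample 14 at rest was at 20.2%, WT sample 37 at 30 min at 18.7% and mD3AKO sample 17 at 60 min at 1.09%, each the highest of its group. For Ucn, mD3AKO sample 48 at 30 min was highest at 6.705% and mD3AKO sample 3 at 60 min lowest at 2.17%. For Ctxn1, mD3AKO sample 2 at rest was at 1.49% and mD3AKO sample 39 at 10 min at 0.823%, both highest. For Ppp1r18, WT sample 22 at 60 min was lowest at 2.055% and mD3AKO sample 10 at 60 min highest at 2.31%.

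At clusters near 0, most such samples were the highest of a group otherwise at or near 0. For Fbxl15/Psd they were WT sample 20 at rest (0.687%), WT sample 42 at 10 min (1.73%) and WT sample 18 at 60 min (1.16%). For Dennd4c they were WT sample 18 (2.84%) and mD3AKO sample 17 (1.66%), both at 60 min. For Zfp692 they were WT sample 37 at 30 min (2.38%), mD3AKO sample 33 at 30 min (0.535%) and mD3AKO sample 3 at 60 min (1.95%). For Thap3, WT sample 14 at rest was highest at 4.74%, and mD3AKO sample 28 at 10 min was lowest at 0%, the others being at 3.70 to 4.79%. For Adgrb3, mD3AKO sample 23 at 60 min was at 0.198%. For Sike1 they were WT sample 35 at 10 min (0.5195%), WT sample 4 at 60 min (0.429%), mD3AKO sample 8 at rest (7.84%), mD3AKO sample 29 at 30 min (2.05%) and mD3AKO sample 3 at 60 min (3.03%).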

How the results depend on the processing

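Against 101 clusters called for genotype by the quasi-likelihood test, the likelihood ratio test called 213 and the quasi-binomial model 155. Within rest and 60 min there were 11, within 10 and 30 min 26, and within single times 2 (rest), 4 (10 min), 3 (30 min) and 2 (60 min), with fewer samples in each. For time the likelihood ratio test called 5 and for the interaction 1, against 0, and the cause was not tested. The median over clusters in place of the mean turned the difference in mean level to 0.0136 percentage points from -0.266. The medians behind it lay under the 0.408% that 0 methylated calls allow for 1 cluster in 1 sample. The part of this limit in the medians was not tested. The difference of the medians was smaller than their SD between samples, so its direction is uncertain. limma (143), a coverage of 20 (72), a 1% filter (108), sex (101), limits of 20 (104) or 50 CpGs (89) and the stricter promoter rule (90) kept the count within 1.5 times. These are counts and not shares, since the coverage, the filter and the cluster rules changed the clusters tested or counted. The 1% filter left out clusters under 1% of pooled calls. By the mean of samples, 2314 of the 8645 clusters were under 0.5% and 3646 between 0.5 and 1%. Except for limma, shares over all clusters were not computed for these settings, nor for the pairs of times. Leaving out 1 sample gave 90 to 101 calls in edgeR, run for 4 samples only, and 140 to 171 in the quasi-binomial model over all 44, with 0 for time and interaction in both. The mean difference then ran from -0.279 to -0.255. Of 18 named calls, 17 held in the quasi-binomial model (not Dennd4c), 15 at a coverage of 20 (not Ctxn1, Mga or Fbxl15/Psd), 9 within rest and 60 min, 14 within 10 and 30 min, and 2 to 4 within single times. Of them 2 were not tested under the 1% filter, and 0 reversed. Means of named clusters without 1 sample were added after seeing the data. No paired analysis was possible because the groups shared no replicate numbers. At a median of 735 calls, 0 methylated calls in 1 sample allow a level of up to 0.408%.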
